A study of Mus musculus with 8 samples.

Results

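Neurofilament and microtubule-associated protein genes were followed through RNA sequencing of the mouse ventral midbrain. The group holds 9 genes, chosen by name with earlier results of these data known. These are the neurofilament subunits Nefl, Nefm and Nefh, the related intermediate filament genes Ina and Prph, and the microtubule-associated protein genes Mapt, Map2, Map1a and Map1b. They were found by matching the RefSeq transcript identifiers of the count table to mouse symbols, and they account for 14 of its 19931 transcript rows and 9 of the 15374 genes those rows represent. The libraries came from 4 samples of Ercc1 delta/+ mice, which carry a truncating delta allele of the DNA repair gene Ercc1 beside a wild type allele, and from 4 samples of wild type mice. Every sample was labelled as ventral mesencephalic area, from an equal mix of the FVB and C57BL/6J strains on a regular diet, and the delta allele is a germline change that is not limited to neurons. The labels give neither age nor sex, and they do not tie each library to its own animal. The p-values therefore cover the spread among these 8 libraries, part of which may be technical.

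Neurofilaments are the intermediate filaments of large axons. Nefl forms the core of the filament, Nefm and Nefh add long side arms that project from it and space neighbouring filaments, and Ina takes part in the same filaments in the central nervous system. Microtubule-associated proteins bind along the microtubule wall: tau, the product of Mapt, is known mainly from axons, the product of Map2 mainly from dendrites and the cell body, and the products of Map1a and Map1b from both. Neurofilament proteins and tau have long been studied in Parkinson disease and other diseases of neurons.

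Repeated coding elements of Nefh and of the tau family are shown first because they bear on how reads of these genes can be placed, and they are given in the coding strand of the GENCODE M21 transcripts, which are the GRCm38 (C57BL/6J) reference and not a sequence read from these mice. The first stretch is the densest run of lysine-serine-proline codons in Nefh (chromosome 11), coding bases 1564 to 1671 counted from the start codon, with each of its 6 codon triplets in capitals. The serine of this triplet is the site at which the side arm is known to be phosphorylated.
Nefh: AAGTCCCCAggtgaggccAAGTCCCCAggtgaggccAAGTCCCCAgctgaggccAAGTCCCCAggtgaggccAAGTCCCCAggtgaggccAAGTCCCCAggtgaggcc

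The triplet was searched in frame on the coding strand as AAA or AAG, then TCN, AGT or AGC, then CCN. The Nefh coding sequence held 51 of them, Nefm 4, and Nefl, Ina and Prph none, while Map1a also held 4, Map1b 3, and Mapt and Map2 2 each. The same triplet occurred at least once in 11.8% of the 14999 genes with a coding sequence, 29 genes had at least as many as Nefm, and only Nefh itself reached its own number. Because of this repetition, 150 of the 3945 windows of 50 bases in the Nefh transcript (3.80%) occurred more than once within it, and no such window was repeated within any other of the 9 genes. None of the 9 genes shared a 50-base window with another gene's transcripts, although the sources do not state the read length.

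The next lines give the runs of proline and 3 glycines found in Mapt and Map2, which in tau close the microtubule-binding repeats, as 24 coding bases of which the capitals mark the codons of proline and the 3 glycines. Those of Mapt (chromosome 11) begin at coding bases 589, 682, 775 and 871, and those of Map2 (chromosome 1) at 1060 and 1156, of the longest transcript linked to each gene's rows. Each line is named by its first coding base.
Mapt 589: ctgaagcaccagCCAGGAGGTGGC
Mapt 682: atcaaacacgtcCCGGGTGGAGGC
Mapt 775: atccatcacaagCCAGGAGGTGGC
Mapt 871: atcacccacgtcCCTGGAGGAGGG
Map2 1060: atccgtcacaggCCAGGTGGTGGA
Map2 1156: gctcaccacgtaCCTGGAGGTGGT

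A run of proline and 3 glycines, CCN followed by 3 codons GGN, occurred in frame in 412 genes (2.75%), and 2 genes had at least 4 of them. The Map2 rows of the table correspond to short forms, with coding lengths of 1494 and 1401 bases against 5484 bases for the longest Map2 coding sequence in the annotation. Reads from exons found only in longer forms would therefore lie outside the gene models of these rows. The Mapt rows have coding lengths of 1290 and 1116 bases, against 2247 bases for the longest Mapt form.

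Libraries held between 18317217 and 31282127 counts. The gene carrying the mutation was measured first, as a check of the labels: Ercc1 had 10.2, 12.9, 11.0 and 11.9 CPM (counts scaled to library size and normalised between libraries by the TMM method) in Ercc1 delta/+ samples, against 14.0, 15.3, 14.9 and 13.8 CPM in wild type samples. The groups did not overlap, in the direction of the labels, as was so for 6.87% of all genes. The log2 fold change of -0.34 (SE 0.10) missed the threshold (adjusted p = 0.113 by edgeR's quasi-likelihood test with Benjamini-Hochberg adjustment over 15088 genes). The Ercc1 transcript has 1375 bases, and tested genes of 1000 to 2000 bases had a median log2 fold change of -0.10, so this check is a limited one. Samples differed in markers of neighbouring tissue. Summed choroid plexus markers ran from 76.8 to 1154 CPM in Ercc1 delta/+ samples and from 63.1 to 156 CPM in wild type samples. Ercc1 delta/+ replicates 1, 2 and 3 lay above every wild type library, and replicate 4 did not. All 10 of these markers had positive log2 fold changes, with a median of 1.82 and 0 past the threshold. An unadjusted p under 0.05 by edgeR's quasi-likelihood test was found for 8 of them, against 18.7% of all genes. Choroid plexus content thus followed genotype in part. Ercc1 delta/+ replicate 2 had 0.622 CPM of Isl1, a transcription factor of cholinergic and other neurons, against 10.4 to 15.8 CPM in the other 7 libraries. The ventral midbrain label was checked against dopaminergic markers such as Th and Slc6a3, whose summed level was 297 to 552 CPM in Ercc1 delta/+ samples and 393 to 599 CPM in wild type samples, with all 10 listed genes detected well enough to be tested. In these bulk samples, fewer cells of a type and less RNA per cell cannot be told apart.

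Per length of the longest transcript linked to each gene, 6 of the 9 genes were expressed at similar levels. This rests on the length chosen, most of all for Mapt. Its counts come from a row whose own transcript has 1362 bases, but were divided by the 5253 bases of its longest linked transcript. At 1362 bases its level per kilobase and its place in the order would be higher. The other Mapt row, whose own transcript has 5253 bases, held 99.2% of the counts of that row and gives nearly the level stated here. Map1a and Map2 counts likewise come from rows of 10145 and 4981 bases, but were divided by 11825 and 5440 bases. At their own row lengths both levels would be higher. In CPM per kilobase, Map1a averaged 161 ± 17.5 in Ercc1 delta/+ samples and 130 ± 7.36 in wild type samples (SD, n = 4 each, as for all means below). Map2 averaged 143 ± 24.3 in Ercc1 delta/+ samples and 132 ± 17.5 in wild type samples. In Ercc1 delta/+ samples Nefl averaged 140 ± 40.7, Nefm 140 ± 43.3, Map1b 137 ± 9.57 and Mapt 126 ± 2.13. In wild type samples Nefl averaged 127 ± 24.9, Nefm 116 ± 32.0, Map1b 117 ± 12.03 and Mapt 119 ± 2.44. In wild type samples, neighbours in the order Map2, Map1a, Nefl, Mapt, Map1b and Nefm differed by less than the SD of either gene, with 1 exception. Nefl and Mapt differed by less than the SD of Nefl but by more than that of Mapt. These 6 genes ranked between 385 and 482 of all genes. Nefh, at 79.1 ± 28.1 CPM per kilobase in Ercc1 delta/+ samples and 72.9 ± 20.8 in wild type samples, and Ina, at 73.9 ± 10.4 in Ercc1 delta/+ samples and 67.7 ± 10.4 in wild type samples, came next and did not differ from each other beyond their spread. Prph, which encodes the intermediate filament peripherin of peripheral and cranial nerve neurons, was far below them at 2.73 ± 0.916 CPM per kilobase in Ercc1 delta/+ samples and 3.14 ± 0.821 in wild type samples.

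**Figure D1:**
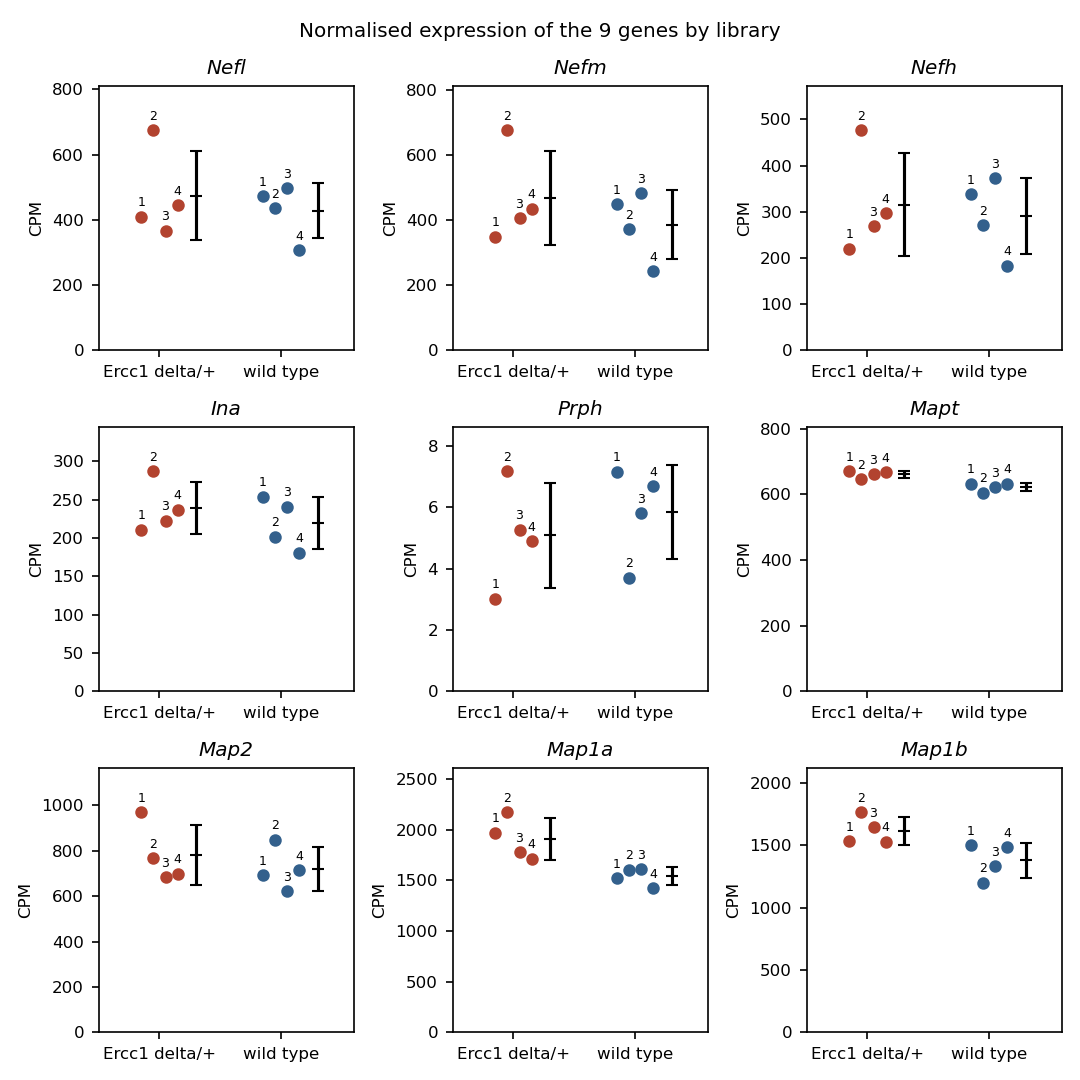
Levels of the 9 genes in CPM on the vertical axes, each point a library with its replicate number and each bar the mean with its SD (4 Ercc1 delta/+ libraries left, 4 wild type libraries right). The groups overlapped for 6 genes and did not for Mapt, Map1a and Map1b, where every Ercc1 delta/+ library lay above every wild type library.

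None of the 9 genes passed the threshold for a genotype difference. By edgeR's quasi-likelihood test with Benjamini-Hochberg adjustment, 0 of the 9 were called, against 7 of 15088 genes (0.0464%) in the whole table, 2 higher (0.0133%) and 5 lower (0.0331%). At an unadjusted p under 0.05 there were 2 of 9, Map1a and Map1b, against 18.7% of all genes. The count was also 0 by limma-voom, which called 0.345% of all genes tested, and by edgeR's exact test, which called 3.69%. It was 1, Map1a, by DESeq2, which called 7.53%. The groups did not overlap for 3 of 9 genes, all higher in Ercc1 delta/+ samples, against 5.17% of all genes higher and 6.87% lower in that way. The log2 fold change was positive for 8 of 9 genes, against 49.5% of all genes, with a median of 0.13 over the 9 genes and of -0.0029 over all genes tested.

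**Figure D2:**
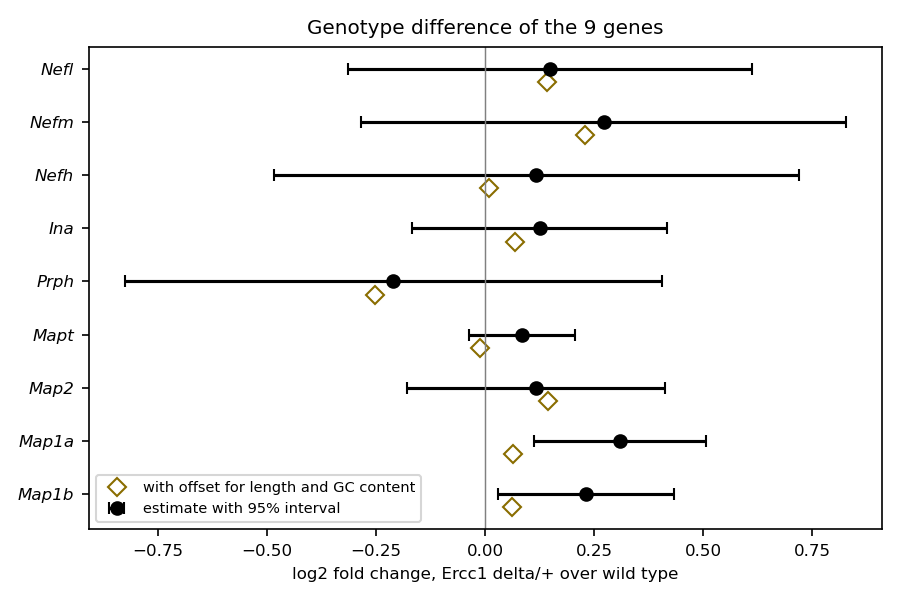
Log2 fold change (Ercc1 delta/+ over wild type, horizontal axis) of each of the 9 genes, as a filled point with its 95% interval from the count fit and as an open diamond without interval from the same fit corrected for length and GC content of transcripts. The intervals of Map1a and Map1b lie above 0 without the offset, and with it both genes are at 0.06.

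The neurofilament subunits varied more between samples of the same genotype than between genotypes. Nefl had 409.8, 675, 367 and 445 CPM in Ercc1 delta/+ samples, against 472, 435, 496 and 307 CPM in wild type samples. Nefm, a side-arm subunit, had 349, 676, 406 and 435 CPM in Ercc1 delta/+ samples, against 449, 372, 482 and 242 CPM in wild type samples. Nefh, the subunit with the longest side arm, had 219.9, 477, 269 and 297 CPM in Ercc1 delta/+ samples, against 338, 270.4, 372 and 183 CPM in wild type samples. In all 3 genes the highest library was Ercc1 delta/+ replicate 2, the lowest was wild type replicate 4, and the remaining libraries of the 2 genotypes overlapped. These were also the shallowest library, with 18317217 counts, and the deepest, with 31282127 counts. The part of depth in these extremes was not tested.

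The genotype means of these subunits lay within that spread. Nefl averaged 474 ± 138 CPM in Ercc1 delta/+ samples and 428 ± 84.3 CPM in wild type samples, a log2 fold change of 0.15 (SE 0.21, 95% interval -0.31 to 0.61, adjusted p = 0.735 by edgeR's quasi-likelihood test). Nefm averaged 466 ± 144 CPM in Ercc1 delta/+ samples and 386 ± 107 CPM in wild type samples, a log2 fold change of 0.27 (SE 0.25, 95% interval -0.28 to 0.83, adjusted p = 0.585). For Nefh, at 316 ± 112 CPM in Ercc1 delta/+ samples and 291 ± 83.2 CPM in wild type samples, the log2 fold change was 0.12 (SE 0.27, 95% interval -0.48 to 0.72, adjusted p = 0.851). The direction for Nefl and Nefh rested on single libraries: without Ercc1 delta/+ replicate 2 the log2 fold change was -0.07 for Nefl and -0.15 for Nefh, and without wild type replicate 4 it was -0.05 for Nefh. Nefm stayed positive, at 0.04 without Ercc1 delta/+ replicate 2.

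The spread of the neurofilament genes was wide for genes of their level. The highest library exceeded the lowest 2.20-fold for Nefl, 2.79-fold for Nefm and 2.60-fold for Nefh. Among the 4895 genes averaging over 50 CPM, 4.80% had a within-genotype SD of log2 CPM at least as large as that of Nefl, 2.59% as that of Nefm and 2.00% as that of Nefh. Summed markers of neurons in general were also highest in Ercc1 delta/+ replicate 2, at 8841 CPM, and lowest in wild type replicate 4, at 6567 CPM, over a range of 7277 to 8841 CPM in Ercc1 delta/+ samples and 6567 to 7950 CPM in wild type samples. Ercc1 delta/+ replicate 1 came next for these markers, at 8006 CPM, but ranked 7 of 8 for summed Nefl, Nefm and Nefh, at 979 CPM. Wild type replicate 4 was also lowest for summed markers of oligodendrocytes (5945 CPM), astrocytes (3165 CPM), microglia (311 CPM) and choroid plexus (63.1 CPM). The same held for cortex, hippocampus and thalamus neurons (635 CPM), but not for dopaminergic neurons, cholinergic neurons or endothelium. The part of neuron, oligodendrocyte or other cell content in the spread of the neurofilament genes was not tested.

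**Figure D3:**
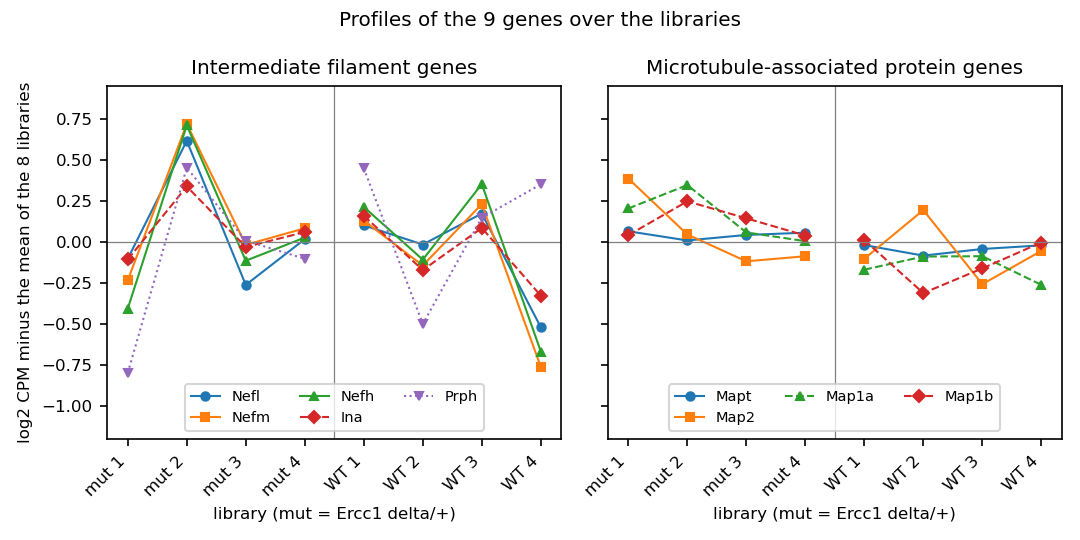
Log2 CPM of each gene minus its mean over the 8 libraries (vertical axis), by library (horizontal axis, Ercc1 delta/+ libraries left and wild type libraries right), for intermediate filament genes and for microtubule-associated protein genes. Nefl, Nefm, Nefh and Ina share their peak in Ercc1 delta/+ replicate 2 and their lowest point in wild type replicate 4, whereas Mapt stays nearly flat.

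Nefl, Nefm, Nefh and Ina moved together from library to library. Ina, which encodes alpha-internexin, had 211, 287, 222 and 237 CPM in Ercc1 delta/+ samples, against 254, 202, 241 and 181 CPM in wild type samples. Its highest and lowest libraries were those of the neurofilament subunits, over a narrower range of 1.59-fold. It averaged 239 ± 33.6 CPM in Ercc1 delta/+ samples and 219 ± 33.8 CPM in wild type samples, with a log2 fold change of 0.13 (SE 0.13, 95% interval -0.17 to 0.42, adjusted p = 0.637 by edgeR's quasi-likelihood test).

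Correlations of log2 CPM over the 8 libraries were computed for all 36 pairs of the 9 genes, a choice made after the values had been seen. After Benjamini-Hochberg adjustment over the 36 pairs, 6 had an adjusted p under 0.05 for Pearson's r by exact permutation, and they were the 6 pairs among Nefl, Nefm, Nefh and Ina. Nefm and Nefh had Pearson's r = 0.971 and Spearman's rho = 0.976 (exact permutation p = 9.92e-05 and 0.000397, adjusted p = 0.00357 and 0.00714, n = 8). Without Ercc1 delta/+ replicate 2 and wild type replicate 4, the libraries farthest from the median, r was 0.957, and with each genotype centred on its own mean it was 0.995. Nefl and Nefm had r = 0.943 and rho = 0.929 (exact permutation p = 0.00327 and 0.00223, adjusted p = 0.0236 and 0.0201, n = 8), and r was 0.641 without those 2 libraries. Nefl and Ina had r = 0.900 and rho = 0.881 (exact permutation p = 0.00449 and 0.00724, adjusted p = 0.0269 and 0.0435, n = 8), and r was 0.556 without them, so much of the relation of Nefl with Nefm and Ina rests on those 2 libraries. The same 8 libraries, with their depth and tissue content, underlie every pair, and the correlations are not separate evidence on each pair.

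The proportions of the neurofilament subunits were steadier than their levels. Per length, the Nefh to Nefl ratio averaged 0.559 ± 0.0739 in Ercc1 delta/+ samples and 0.568 ± 0.0620 in wild type samples, and the Nefm to Nefl ratio 0.998 ± 0.105 in Ercc1 delta/+ samples and 0.904 ± 0.0865 in wild type samples. The Nefh to Nefm ratio, the proportion of the side-arm subunits, was 0.526, 0.589, 0.554 and 0.570 in Ercc1 delta/+ samples, against 0.628, 0.607, 0.645 and 0.632 in wild type samples. Every Ercc1 delta/+ library lay below every wild type library for this ratio. Its mean was 0.560 ± 0.0267 in Ercc1 delta/+ samples and 0.628 ± 0.0155 in wild type samples, a difference of -0.17 on the log2 scale or 11.0% lower. The exact two-sided permutation p was 0.0286, the smallest that 70 assignments of 4 and 4 samples can give, and after adjustment over the 6 ratios examined it was 0.171, which misses the threshold. The difference was -0.19 to -0.14 when each library was left out in turn. A related measure, the log2 fold change of Nefh minus that of Nefm in the edgeR fit with an offset for length and GC content, was -0.22. Those 2 fold changes were 0.0097 and 0.23 with the offset, against 0.12 and 0.27 without it. This ratio was picked out after its values had been seen, and it rests on no more than these 8 libraries.

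**Figure D4:**
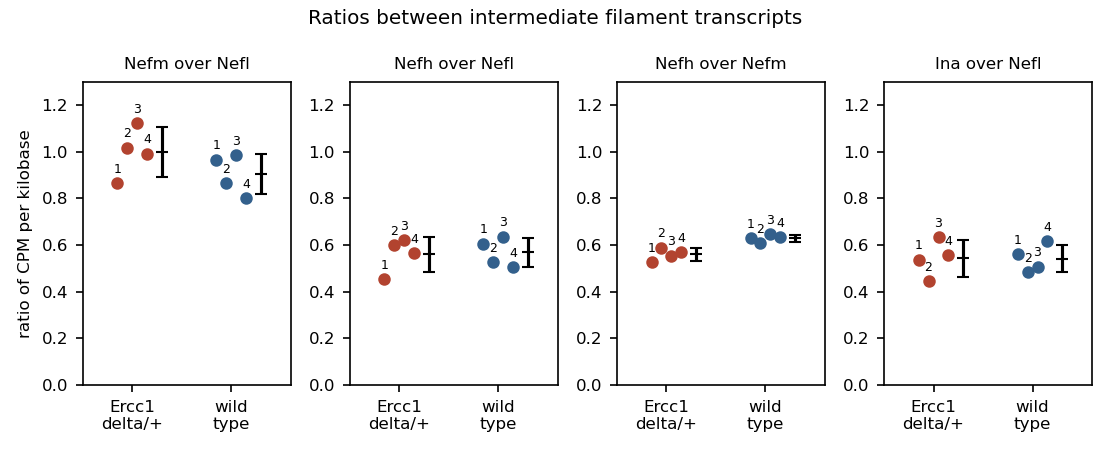
Ratios of levels per length within each library (vertical axes) for 4 of the 6 ratios, each point a library with its replicate number and each bar the group mean with its SD, with Ercc1 delta/+ libraries left and wild type libraries right in each panel. Only for Nefh over Nefm do the groups not overlap, with 0.526 to 0.589 in Ercc1 delta/+ libraries and 0.607 to 0.645 in wild type libraries.

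Over all 8 libraries, Prph did not follow the neurofilament subunits closely. It had 3.01, 7.18, 5.27 and 4.88 CPM in Ercc1 delta/+ samples, against 7.16, 3.71, 5.81 and 6.69 CPM in wild type samples, from 65 to 220 counts per library. Its highest library was Ercc1 delta/+ replicate 2, as for the neurofilament subunits. Wild type replicate 4, lowest for those subunits, was among the higher libraries for Prph, and the groups overlapped. Pearson's r over the 8 libraries was 0.240 with Nefl, 0.298 with Nefm, 0.442 with Nefh and 0.435 with Ina. Without Ercc1 delta/+ replicate 2 and wild type replicate 4 it was 0.419, 0.886, 0.856 and 0.882 in that order. The weak relation over all 8 libraries thus rests in part on those 2. The mean was 5.09 ± 1.71 CPM in Ercc1 delta/+ samples and 5.84 ± 1.53 CPM in wild type samples, a log2 fold change of -0.21 (SE 0.27, 95% interval -0.83 to 0.41, adjusted p = 0.718 by edgeR's quasi-likelihood test). It was the only member with a negative value. Summed markers of cranial motor and other cholinergic neurons, 5 of the 9 listed genes being testable (Chat, Slc5a7, Slc18a3, Isl1 and Calca), ran from 29.6 to 68.9 CPM in Ercc1 delta/+ samples and from 40.8 to 61.8 CPM in wild type samples. The sum was lowest in Ercc1 delta/+ replicate 2 and wild type replicate 1, the 2 libraries with the most Prph. Phox2a did not pass the filter on low counts, Tbx20 and Mnx1 were not analysed here, and the part of cholinergic neurons in the Prph level was not tested.

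Mapt was the steadiest of the 9 genes. It had 670.5, 645, 660.2 and 666 CPM in Ercc1 delta/+ samples, against 632, 605, 622 and 632 CPM in wild type samples. All Ercc1 delta/+ libraries lay above all wild type libraries, by a small margin. The mean was 661 ± 11.2 CPM in Ercc1 delta/+ samples and 623 ± 12.8 CPM in wild type samples, and the log2 fold change was 0.08 (SE 0.05, 95% interval -0.04 to 0.21, adjusted p = 0.427 by edgeR's quasi-likelihood test). The within-genotype SD of log2 CPM was 0.0274, and 99.5% of the 4895 genes averaging over 50 CPM had one at least as large. That interval corresponds to folds of 0.98 to 1.15. With an offset for length and GC content, which took Mapt at 5253 bases, the log2 fold change was -0.01.

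Map2 had 970.5, 766, 684 and 699 CPM in Ercc1 delta/+ samples, against 691, 849, 621 and 715 CPM in wild type samples. Ercc1 delta/+ replicate 1 and wild type replicate 2 were the high libraries, and the groups overlapped. The mean was 780 ± 132 CPM in Ercc1 delta/+ samples and 719 ± 95.5 CPM in wild type samples, a log2 fold change of 0.12 (SE 0.13, 95% interval -0.18 to 0.41, adjusted p = 0.669 by edgeR's quasi-likelihood test), which was -0.01 without Ercc1 delta/+ replicate 1. Summed markers of cortex, hippocampus and thalamus neurons ran from 836 to 1650 CPM in Ercc1 delta/+ samples and from 635 to 1291 CPM in wild type samples. The 3 libraries with the highest sums were replicates 1 and 2 of Ercc1 delta/+ and replicate 2 of wild type, and they were also the 3 highest for Map2, and the part of such tissue in the Map2 level was not tested.

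Map1a and Map1b, which encode the large precursors of the MAP1 heavy and light chains, had the largest log2 fold changes among the microtubule-associated members in the fit without an offset for length. Map1a had 1967, 2173, 1778 and 1714 CPM in Ercc1 delta/+ samples, against 1519, 1606, 1608 and 1425 CPM in wild type samples. Map1b had 1532, 1768, 1645 and 1529.8 CPM in Ercc1 delta/+ samples, against 1500.5, 1199.5, 1331 and 1485 CPM in wild type samples. The groups did not overlap for either gene. The gap lay between 1608 and 1714 CPM for Map1a and between 1500.5 and 1529.8 CPM for Map1b.

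Map1a averaged 1908 ± 207 CPM in Ercc1 delta/+ samples and 1539 ± 87.0 CPM in wild type samples, a fold of 1.24 (95% interval 1.08 to 1.42) and a log2 fold change of 0.31 (SE 0.09). Its unadjusted p was 0.00614 and its adjusted p was 0.113 by edgeR's quasi-likelihood test with Benjamini-Hochberg adjustment. Over the alternatives the adjusted p ran from 0.0165 with DESeq2, the only setting that called it, to 0.879 with an offset for length and GC content. Map1b averaged 1619 ± 113 CPM in Ercc1 delta/+ samples and 1379 ± 142 CPM in wild type samples, a fold of 1.17 (95% interval 1.02 to 1.35) and a log2 fold change of 0.23 (SE 0.09). Its unadjusted p was 0.0288 and its adjusted p was 0.215 by the same edgeR test. The Map1a to Map1b ratio per length was 1.18 ± 0.0942 in Ercc1 delta/+ samples and 1.13 ± 0.176 in wild type samples, and its groups overlapped. When each library was left out in turn, the log2 fold change was 0.24 to 0.36 for Map1a and 0.17 to 0.27 for Map1b. Of the 10 markers of neurons in general, 9 had positive values, with a median log2 fold change of 0.07. Of the 11 markers of cortex, hippocampus and thalamus neurons, 8 had positive values, with a median of 0.87 and 0 past the threshold. Their sum was highest in Ercc1 delta/+ replicates 1 and 2, the highest libraries for Map1a as well. Map1b was also highest in Ercc1 delta/+ replicate 2. It was lowest in wild type replicate 2, whose marker sum of 1291 CPM was the highest among wild type samples. The part of such tissue in the Map1a and Map1b values was not tested.

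The transcripts of Map1a and Map1b, at 11825 and 11808 bases, are the longest of the 9, and fold changes in the whole table moved with transcript length. Of the 323 tested genes of at least 10000 bases, 85.8% had positive values, the median log2 fold change was 0.20, and 20.4% had Ercc1 delta/+ libraries all above the wild type libraries. Of the 2727 genes between 3000 and 4000 bases, the range of Nefl, Nefm, Nefh and Ina, 53.0% were positive with a median of 0.01. Spearman's rho between log2 fold change and length was 0.395 across genes, which are not independent replicates, and 0.0781 after an offset for length and GC content was fitted within each library. With that offset the log2 fold change was 0.06 for Map1a, 0.06 for Map1b (adjusted p = 0.819 by edgeR for Map1b), 0.23 for Nefm, 0.14 for Nefl, 0.15 for Map2, 0.07 for Ina and 0.0097 for Nefh. The median over the 9 genes was then 0.06, and 7 of 9 were positive. What this relation with length reflects was not tested.

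**Figure D5:**
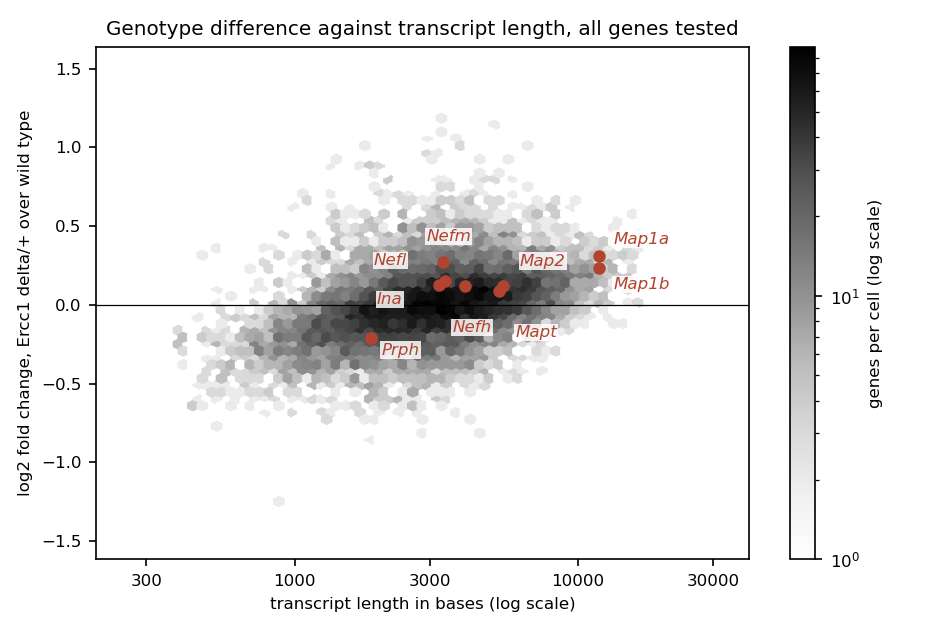
Log2 fold change (Ercc1 delta/+ over wild type, vertical axis) against transcript length in bases (horizontal axis, log scale), with grey cells shaded by the number of tested genes and the 9 genes as labelled points. The grey cloud climbs with length, and Map1a and Map1b lie at its long end near the median of 0.20 of genes of at least 10000 bases, while 32 genes fall outside the axes.

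Every transcript row of the 9 genes was also tested on its own. Prph has 3 rows, Map1a, Map2 and Mapt 2 each, and the others 1. Rows of the same gene held at least 99.2% of the counts of the gene's top row, and the counts of 2 Prph rows were identical, so the rows repeat nearly the same reads and are not separate measurements. Of the 14 rows, 0 passed the threshold in an edgeR quasi-likelihood fit over 19602 rows, against 4 rows in all (0.0204%), with the lowest adjusted p at 0.114 for a Map1a row. In the authors' deposited table, 11 of the 14 rows had a positive log2 fold change and the 3 Prph rows a negative one, and the lowest adjusted p was 0.245, for Map1a, against 371 rows (1.86%) below 0.05 in that table. The share of the rows within Mapt, Map2 and Map1a did not separate the genotypes: the ratio of the 2 rows stayed between 0.999 and 1.01 in all libraries, and the exact permutation p adjusted over the 3 genes was 1 for each. With rows that share nearly all reads, a change in isoform use was not detectable here.

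Other genes of the same skeleton gave no call either. Of 28 tested further microtubule-associated protein genes, 17 lay above 0 and 11 below it, the median log2 fold change was 0.06, and 0 passed the threshold, while 6 had an unadjusted p under 0.05, against the 18.7% of all genes, beside which the counts at this p in the lists below also stand. The lowest adjusted p-values by edgeR's quasi-likelihood test were those of Clip1, a protein of growing microtubule ends (log2 fold change 0.25, SE 0.06, adjusted p = 0.0944), Stmn1, which sequesters tubulin (-0.23, SE 0.07, adjusted p = 0.109), and Clip2 (0.24, SE 0.07, adjusted p = 0.116). Of 14 tubulin genes, 12 were negative and 2 positive, with a median of -0.07, 0 calls and 3 at an unadjusted p under 0.05. Those 3 were Tuba1a (log2 fold change -0.19), Tuba1b (-0.18) and Tuba1c (-0.18), near-identical copies between which reads may be split or shared. The median length of the tubulin genes was 1836 bases, and genes of 1000 to 2000 bases had a median log2 fold change of -0.10. With the offset for length and GC content the tubulin median changed little, from -0.072 to -0.068, and 3 of the 14 were positive.

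Of 29 kinases and phosphatases that act on tau and neurofilaments, 20 were positive, the median was 0.09, and 0 were called, with 2 at an unadjusted p under 0.05. These were Mark2 (log2 fold change 0.27, adjusted p = 0.242 by edgeR) and Ttbk1 (0.34, adjusted p = 0.245), both of which phosphorylate tau. Of 12 other intermediate filament genes, linkers and turnover factors, 11 were positive, the median was 0.23, and 0 were called, with 6 at an unadjusted p under 0.05, all higher. Plec, which encodes the linker plectin, had 271, 251, 297 and 254 CPM in Ercc1 delta/+ samples, against 195, 178, 203 and 230 CPM in wild type samples (log2 fold change 0.41, SE 0.09, adjusted p = 0.0774 by edgeR's quasi-likelihood test). Its groups did not overlap, and neither did those of Synm, which encodes synemin (log2 fold change 0.24, adjusted p = 0.113 by edgeR).

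All 15 spectrin and ankyrin genes of the axonal membrane skeleton had positive values, with a median of 0.23, 0 calls and 5 at an unadjusted p under 0.05. Sptbn4 (log2 fold change 0.28, adjusted p = 0.0922 by edgeR), Sptan1 (0.28, adjusted p = 0.102) and Ank2 (0.23, adjusted p = 0.110) had the lowest p-values among them. The median length of these genes was 8218 bases, and with the offset for length and GC content their median was 0.05 and that of the 12 filament and linker genes 0.10.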

How the data were processed

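Poly(A) RNA of 8 samples was sequenced in a shared lane, per the labels' protocols. The authors deposited whole-number counts per coding RefSeq transcript, and, per the submitters' processing notes, used TopHat 1.3.1 and edgeR with mm9. The deposited log2 fold changes and p-values are the authors' own and are quoted only by name. The sources used here name neither the counter nor how it handled shared reads and strand, which leaves genes that overlap or resemble another gene uncertain.

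Of 19931 rows, 19456 matched a symbol in RefSeq (GRCm38.p6) or GENCODE M21 tables, which served for names, lengths and sequences only. The row with the highest total stood for its gene. The lowest row total was 31, which shows a filter before deposit. No pair of replicates agreed within sampling noise (lowest chi-square over degrees of freedom 11.9). At these depths 3 counts equal 0.0959 to 0.164 CPM, which covers counting error only.

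The main test was edgeR 4.0.16 (R 4.3.3): TMM, filterByExpr (15088 genes kept), quasi-likelihood, two-sided, Benjamini-Hochberg over all genes, threshold 0.05. CPM are TMM-normalised. CPM per kilobase used the longest transcript linked to a gene's rows. Intervals are 95%. The length and GC offset was a lowess fit (span 0.3) per library. Alternatives used limma 3.58.1, DESeq2 1.42.0, other filters and scalings, and left out each library. The fits were tested on simulated data. All 9 members, Ercc1, up to 3 genes of lowest p per list, and the 5 genes nearest in profile to the neurofilament mean and to Prph (12129 genes averaging at least 5 CPM) were named, except for items that are not reported here. The genes, lists and tests were chosen with earlier results of these data known.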

Additional observations from a re-analysis of the deposited data

How the results depend on the processing

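The number of genes called in the whole table, 7, was 33 with RLE size factors, 50 with a stricter filter on low counts, 1045 with DESeq2, 52 with limma-voom, 556 with edgeR's exact test, 34 with transcript rows summed per gene, 1 with an offset for length and GC content, 1 with a model term marking the 4 shallowest libraries and 4 with every transcript as its own row. It ran from 0, without Ercc1 delta/+ replicate 4, to 305, without Ercc1 delta/+ replicate 2, when each library was left out. The number called among the 9 genes was 0 in all of these except DESeq2, where it was 1. The causes were not tested.

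Of 189 log2 fold changes of the 9 genes under alternatives, 179 kept their sign and side of the threshold, 1 passed it and 9 turned sign, the last with adjusted p no lower than 0.753. Mapt was -0.012 with the offset for length and GC content. With the depth term, Prph was 0.035, Map2 -0.024, Nefl 0.0081, Nefh 0.073 and Nefm 0.22. The shallow group holds 3 Ercc1 delta/+ libraries and 1 of wild type, and the deep group 1 and 3, too few for a comparison within either. Leaving out each library gave -0.070 to 0.25 for Nefl, -0.15 to 0.26 for Nefh and -0.0053 to 0.21 for Map2. The log2 share of rows ran from -0.00122 to 0.000594 for Mapt and from -0.000639 to 0.000925 for Map1a.

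Samples of the same number did not consistently deviate together (correlations -0.32, 0.19, -0.00 and 0.31 for numbers 1 to 4). Only Ercc1 delta/+ replicate 4 correlated best with the wild type sample of its own number. A replicate block gave 0 genes called, 0 of the 9, with Map1a at 0.31 (adjusted p = 0.141 by edgeR). With the block and the offset together the count was 0, with Nefh at -0.010 and Mapt at -0.012. Counting error bears mainly on Prph, with 65 to 220 counts per library, since the other 8 genes had at least 4080.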

Other observations

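Over the 8 libraries, the profiles nearest to the mean of Nefl, Nefm and Nefh, by the root mean square difference of centred log2 CPM among 12129 genes, were those of Hapln4 (0.0907), Scrt1 (0.111), Nat8l (0.115), Pdlim1 (0.115) and Pnkd (0.123), against 0.364 for a flat profile. Hapln4, which encodes a link protein of the perineuronal matrix, had 158, 275, 160.5 and 169 CPM in Ercc1 delta/+ samples, against 175, 150.1, 196 and 119 CPM in wild type samples. Its highest and lowest libraries were those of the neurofilament subunits. Ina was at 0.189 and Mapt at 0.369 on the same measure.

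The profiles nearest to Prph were those of Cpne9 (0.179), Mapk12 (0.188), Cbln4 (0.191), Ankrd55 (0.194) and Myh7b (0.196), against 0.418 for a flat profile. Cpne9, of the copine family of calcium-dependent membrane-binding proteins, had 42.0, 70.5, 76.4 and 68.9 CPM in Ercc1 delta/+ samples, against 107, 52.9, 78.4 and 83.4 CPM in wild type samples. For Prph and for these 5 genes the lowest library was Ercc1 delta/+ replicate 1.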
